A study of Lathyrus oleraceus with 4 samples.

Results

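Of 127533 genes of a pea transcriptome assembly, 56 were higher in heated than in unheated flower buds of both cultivars studied. They are called members here, and they were chosen by the measured values themselves. In each cultivar, both columns of the heated sample had to hold a signal of at least 5, and the lower heat column plus 1 had to be at least 2 times the higher control column plus 1. The signal is the authors' TMM-scaled expression value, which is the estimated read count of a gene times 1 constant per column. It has no term for gene length, so its use here is to compare samples for 1 gene. Where members are ordered by signal or set beside each other, the order is that of scaled read counts and not of transcript numbers.

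The buds were unopened flowers of pea (Pisum sativum, also named Lathyrus oleraceus) taken before anthesis. The series holds 4 samples, 1 per cultivar and treatment. Control buds of Arka Chaitra, which the submitters describe as heat-tolerant, were from plants in a growth chamber at day and night temperatures of 22 and 16 °C. Heated buds of Arka Chaitra were from plants exposed to 35 °C for 2 h and sampled straight afterwards. Control and heated buds of Matar Ageta, described as susceptible, were obtained in the same way. Plants of both cultivars had grown in a greenhouse at the control temperatures, and the sources used here give no plant age in days. The title and the genotype tag of a sample name opposite cultivars in all 4 samples, with 0 tags matching a title. Cultivars are named by the titles here, and the choice of members is the same under either label because the rule treats both cultivars alike. Under the tags, every statement on which cultivar was higher would be exchanged. The tissue label could not be checked against marker genes, because the identifiers carry no gene names.

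Each sample appears as 2 numbered columns, and no label says whether these are separate plants, preparations or sequencing runs. They were taken as repeat measurements of a single sample, so a difference between heat and control within a cultivar has no test across plants. A heat effect common to both cultivars was not tested either, because heat is what chose the members. Column totals lay between 10411488 and 21625288 estimated counts.

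Plant cells answer a sudden rise in temperature by activating heat shock transcription factors, which switch on genes for chaperones, proteins that keep other proteins from unfolding and clumping. Many chaperone genes are nearly silent at normal temperature and are transcribed strongly within minutes to hours of warming. Flower buds before anthesis hold developing pollen and the nurse tissue around it, and these are among the most heat-sensitive parts of a plant. Which members belong to that response is unknown here. The identifiers are names made by the assembly, so 0 of the 127533 could match the 65673 genes of the pea reference table. No member therefore has a name, a known role or a printed sequence. The identifiers of only 2 members are given, chosen by a stated rule, and the others are referred to by rank.

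The heat level of 5 was reached in both heat columns of both cultivars by 12940 entries (assembled genes), and 0.433% of these were members. Among the same entries the rule was met by 379 (2.93%) in Arka Chaitra and by 138 (1.07%) in Matar Ageta. Members therefore made up 14.8% of the entries that met it in Arka Chaitra and 40.6% of those in Matar Ageta. Over the whole table, where an entry may be too low in the other cultivar to qualify, 1175 entries met the rule in Arka Chaitra and 294 in Matar Ageta, and members were 4.77% and 19.0% of these. The mirror of the rule, with heat and control exchanged, was met in both cultivars by 23 entries, or 0.173% of the 13288 that had the level in both controls. All these shares rest on the values that define the members and were not tested. The number of members depends on single columns: without the second heat column of Matar Ageta it was 119, without its first heat column 86, and without the second Matar Ageta control column 88.

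The members were ranked by the smaller of their 2 ratios, where a ratio is the lower heat column plus 1 over the higher control column plus 1. The member with the largest such value was TRINITY_GG_56393_c0_g1. Its signal in Arka Chaitra was 1.08 and 1.40 in the control columns and 1735 and 1715 after heat. In Matar Ageta it was 0.583 and 1.56 in the control columns and 199 and 256 after heat. Both heat columns stood far above both control columns in each cultivar, and the ratio was 715 in Arka Chaitra and 78.0 in Matar Ageta. With both columns summed, counts went from 30 to 40382 in Arka Chaitra and from 32 to 7121 in Matar Ageta. The exact 95% interval of the ratio of the counts, scaled for library size, was 950 to 2010 in Arka Chaitra and 145 to 299 in Matar Ageta. Such intervals cover counting error only.

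TRINITY_GG_10525_c0_g1 had the highest value in its lowest heat column over both cultivars. Its signal was 5.83 and 4.21 in the Arka Chaitra control and 487 and 503 after heat. In Matar Ageta the control columns held 10.6 and 3.32 and the heat columns 558 and 344. Its ratio was 71.4 in Arka Chaitra and 29.7 in Matar Ageta, which gives it rank 6. After heat the cultivars held nearly the same level of this gene, 503 CPM (counts of both columns, scaled to library size over the 4 samples) in Arka Chaitra and 469 CPM in Matar Ageta.

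**Figure D1:**
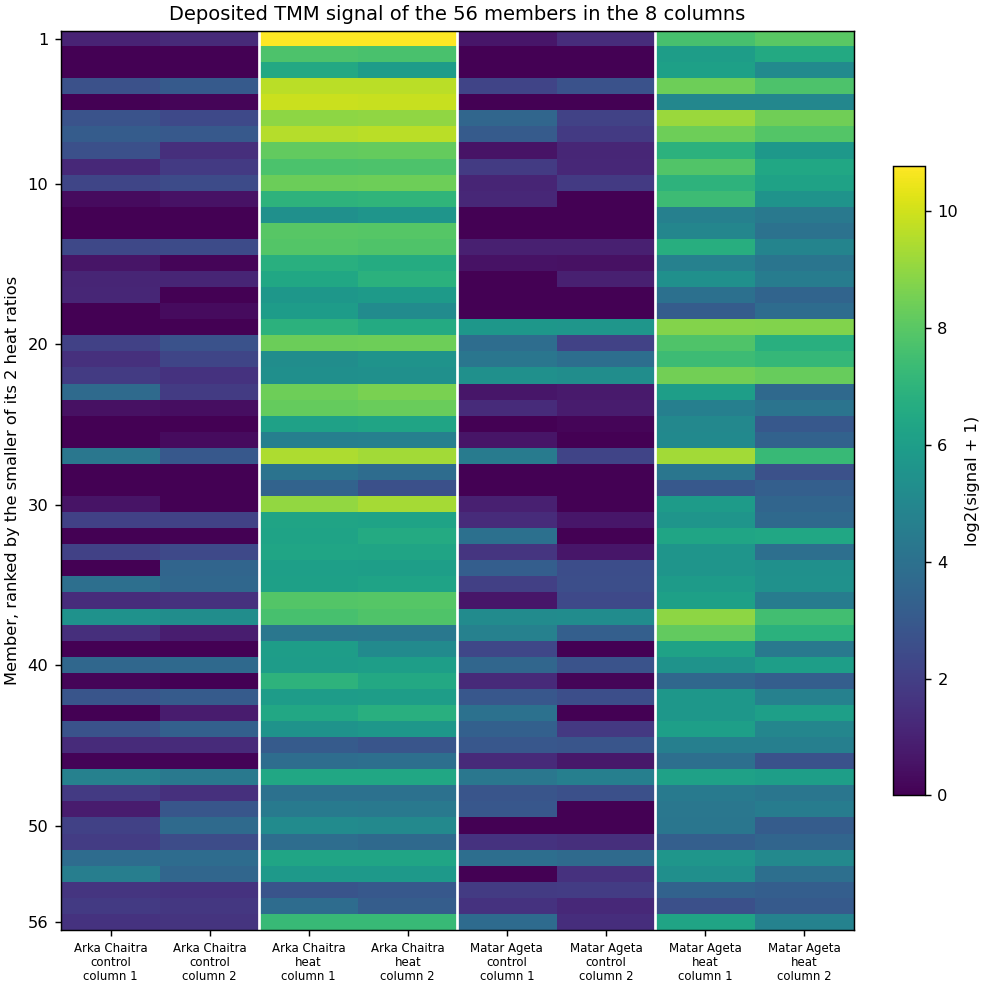
Signal of the 56 members on a log2(signal + 1) colour scale, 1 row per member in order of rank and 1 column per deposited column, with 2 columns for each of the 4 samples. Heat columns are brighter than control columns of the same cultivar in every row, which the rule requires, and most rows are brighter after heat in Arka Chaitra than in Matar Ageta. Signal was scaled separately for the cultivars.

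The difference between heated and control buds varied widely in size among members. In Arka Chaitra the ratio ran from 2.18 to 841 with a median of 31.0, and in Matar Ageta it ran from 2.00 to 78.0 with a median of 6.91. As log2 ratios the medians were 4.95 and 2.79, beside -0.21 and -0.32 over the 12940 entries with the heat level in both cultivars. On column 1 alone, the median log2 ratio in Matar Ageta was 3.95, and in Arka Chaitra 5.34. On column 2 alone it was 3.33 in Matar Ageta and 5.48 in Arka Chaitra. The ratio was at least 16 for 33 members in Arka Chaitra and for 13 in Matar Ageta. It was at least 64 for 16 members in Arka Chaitra and for 1 in Matar Ageta. The counting interval lay above 2-fold for all 56 members in both cultivars, which the rule largely fixes, since it chose them on the same counts.

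Together the members took 0.0232% and 0.0231% of the counts in the 2 control columns of Arka Chaitra and 1.13% and 1.16% in its heat columns. In Matar Ageta their share was 0.0392% and 0.0257% in the control columns and 0.610% and 0.388% in the heat columns. The 2 heat columns of Arka Chaitra were close to each other, whereas the first heat column of Matar Ageta held a larger share than the second. Among the 1000 entries with the most counts were 19 members in heated Arka Chaitra and 11 in heated Matar Ageta, and 0 in either control. TRINITY_GG_56393_c0_g1 held the count of rank 9 among all entries of the heated Arka Chaitra sample and of rank 724 in heated Matar Ageta. Such counts grow with transcript length as well as with the number of transcripts. In bulk tissue, more RNA per cell and more cells of a type cannot be told apart.

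Members fell into groups by their level without heat. A control sample was called near zero when its 2 columns summed to at most 3 counts, which is 0.129 CPM in Arka Chaitra and 0.0975 CPM in Matar Ageta. Where a control held 0 counts, the fold in CPM is given as a lower bound against 3 counts per sample.

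The first group held 9 members that were near zero in the controls of both cultivars. The member of rank 2 had a signal of 0 in all 4 control columns. After heat it had 213 and 205 in Arka Chaitra and 62.8 and 91.1 in Matar Ageta. The member of rank 3 was also at 0 in all 4 control columns, with 89.8 and 61.3 after heat in Arka Chaitra and 69.0 and 34.1 in Matar Ageta. Both were detected in every heat column and in no control column. The member of rank 29, with the lowest Arka Chaitra heat columns of the group, had 9.71 and 5.26 after heat in Arka Chaitra and 6.88 and 8.65 in Matar Ageta. For the 7 of these members at 0 counts in the Arka Chaitra control, the lower limit of the fold ran from 48.4 to 1585. For the 8 at 0 counts in the Matar Ageta control it ran from 60.4 to 590. Rank 5 had the largest ratio of any member in Arka Chaitra, 841. Its control columns held 0 and 0.11 in Arka Chaitra and 0 in Matar Ageta, and its heat columns held 945 and 933 in Arka Chaitra and 30.3 and 30.6 in Matar Ageta.

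In the second group the control was near zero in 1 cultivar only. There were 6 such members with a near-zero Arka Chaitra control and 2 with a near-zero Matar Ageta control. Rank 19 was the clearest case. Its signal was 0 in both control columns of Arka Chaitra and 118 and 94.5 after heat. In Matar Ageta it was already 50.5 and 49.8 without heat and reached 430 and 426 with it. Its ratio was therefore 95.5 in Arka Chaitra and 8.28 in Matar Ageta, although heated buds of Matar Ageta held more of it. Rank 50 was the reverse, with 3.18 and 12.3 in the Arka Chaitra control, 35.8 and 32.0 after heat, 0 in both Matar Ageta control columns, and 17.8 and 7.88 after heat there.

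The other 39 members had more than 3 counts in both controls. Their higher control column ranged from 0.383 to 44.2 in Arka Chaitra and from 0.454 to 40.9 in Matar Ageta. Rank 37 had the highest Arka Chaitra control in the group, with 44.2 and 38.0 there and 197 and 223 after heat. In Matar Ageta the same member had 36.0 and 36.9 without heat and 486 and 179 with it. Its ratios by the rule were 4.39 and 4.74, but the fold in CPM of the summed columns was 5.12 in Arka Chaitra (95% counting interval 4.78 to 5.49) and 10.2 in Matar Ageta (9.61 to 10.9). The lower heat column of Matar Ageta set its ratio. Rank 47 had signals of the same order in both cultivars, with 25.2 and 19.3 against 84.1 and 85.1 in Arka Chaitra and 18.1 and 23.7 against 70.8 and 64.6 in Matar Ageta.

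The ratio was larger in Arka Chaitra than in Matar Ageta for 48 of the 56 members and larger in Matar Ageta for 8. The median difference of the log2 ratios was 1.503, beside 0.10 over the 12940 entries, of which 58.3% had the larger ratio in Arka Chaitra. For 18 members (32.1%) the ratio was at least 4 times larger in Arka Chaitra, and for 0 members in Matar Ageta, beside 2.61% and 0.920% of the 12940 entries. On column 1 alone, and likewise on column 2 alone, the counts were 15 members (26.8%) and 1 member (1.79%). The shares of the 12940 entries were 3.07% and 1.79% on column 1, and 3.86% and 3.23% on column 2. Those entries were not chosen for raised ratios, and their median log2 ratios were -0.21 in Arka Chaitra and -0.32 in Matar Ageta. Large ratios leave more room for a gap between them. The values are therefore not matched to those of the members, and nothing is read from their difference. The widest gap was at rank 30, whose ratio was 348 in Arka Chaitra and 6.05 in Matar Ageta. Its signal was 0.489 and 0 in the Arka Chaitra control, 517 and 628 after heat, 0.899 and 0 in the Matar Ageta control, and 58.2 and 10.5 after heat. The second heat column of Matar Ageta set that low ratio. By the rule's ratio, all 20 members of highest rank had the larger value in Arka Chaitra. The 8 exceptions had ratios of at most 6.26 in Arka Chaitra and 8.88 in Matar Ageta, and ranked 29 or lower. The lower column and the added 1 hold these ratios down. In CPM of the summed columns, the heat to control fold of rank 50 was 4.16 in Arka Chaitra. In Matar Ageta, where its control held 0 counts, the lower limit of the fold of rank 50 was 115. Rank 53 was 3.29-fold higher in Arka Chaitra (95% counting interval 2.93 to 3.69) and 33.6-fold higher in Matar Ageta (23.1 to 50.8). Rank 29, at 0 counts in both controls, had lower limits of 48.4 in Arka Chaitra and 60.4 in Matar Ageta. Some of the first 20 ranks had the larger fold in CPM in Matar Ageta, with overlapping counting intervals. The fold was 89.2 in Arka Chaitra and 114 in Matar Ageta at rank 8, and 53.5 and 84.6 at rank 14. At rank 17 it was 97.9 in Arka Chaitra, and the lower limit was 106 in Matar Ageta, where the control held 0 counts. On summed counts with 1 CPM added, 45 of the 56 members had the larger ratio in Arka Chaitra. Taken on the column means, 44 members had the larger ratio in Arka Chaitra, with a median difference of 0.77 on the log2 scale. The rule sets a floor under each ratio and none under their difference, but the choice of raised ratios still bears on that difference. With 1 sample per cultivar and treatment, the difference of the responses has no residual degree of freedom and was not tested for any member.

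Across the 56 members, Pearson's r of the log2 ratios was 0.674 and Spearman's rho was 0.623. Across the 12940 entries the values were 0.272 and 0.242. Members were kept only where both ratios were at least 2, so these sets of values are not alike in how they were chosen and nothing is read from their difference. The 2 cultivars share no sample, but each ratio carries the added 1, and members near zero in both controls contribute their heat level to both axes. Genes are not independent replicates, and these values are descriptions.

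**Figure D2:**
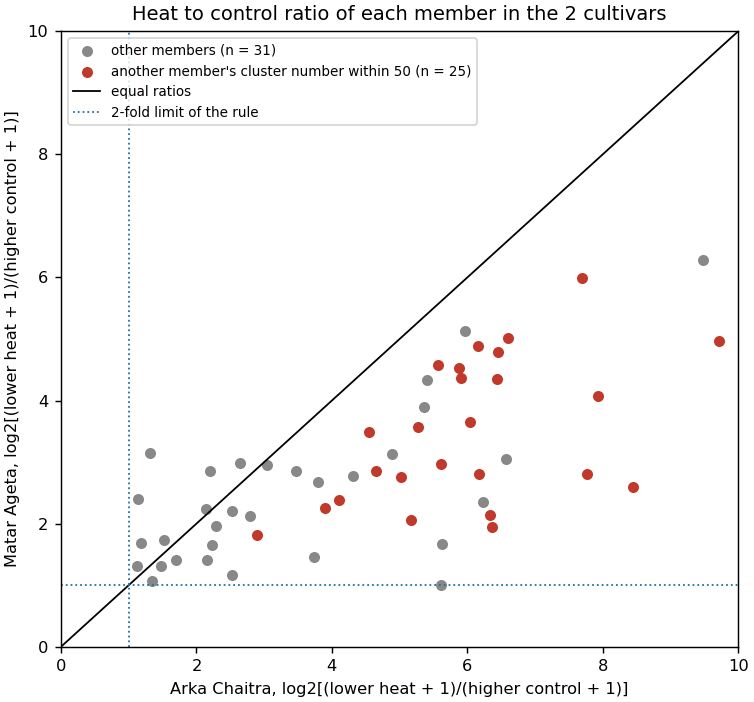
Log2 ratio of each member in Arka Chaitra (x axis) and Matar Ageta (y axis), 1 point per member. Dotted lines mark the 2-fold limit of the rule, the solid line marks equal ratios, and red points are members with another member's cluster number within 50. Of the 56 points, 48 lie below the line of equal ratios.

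The 2 columns of a sample differed in a direction that the rule does not use. In heated Matar Ageta buds, 45 of 56 members were higher in column 1 than in column 2, and 22 were more than 2-fold higher on the scale of signal plus 1. None was more than 2-fold higher in column 2. The median log2 difference of the columns was 0.67. Over the 12940 entries with the heat level in both cultivars, 54.9% were higher in column 1, 3.59% more than 2-fold, with a median of 0.04. The 323 entries that met the rule in Arka Chaitra but not in Matar Ageta had 60.7% and 10.2%, with a median of 0.08. Their median log2 ratio in Matar Ageta was -0.28, so they are not matched to the members. The share of members more than 2-fold higher in column 1 was 39.3%, above both of these groups of entries. Entries that met the rule in Matar Ageta only were not compared, so whether the difference is particular to the members was not tested. Column 1 of this sample held 21625288 counts and column 2 held 11085736, and the part of depth in the difference was not tested.

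A difference in the same direction was present in the Matar Ageta control. Of the 19 members with a mean signal of at least 5 there, 17 were higher in column 1 and 8 were more than 2-fold higher, with a median log2 difference of 0.67. The columns of that sample were nearly equal in depth, at 15365483 and 15074446 counts. For the 22305 entries of that mean level, 47.5% were higher in column 1 and 6.81% more than 2-fold. Rank 56 shows both, with 12.5 and 1.67 in the control columns and 76.0 and 25.9 in the heat columns. Rank 27 had 21.3 and 3.67 in the control columns and 613 and 150 in the heat columns.

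In heated Arka Chaitra buds the columns lay closer together. There 25 of 56 members were higher in column 1, 0 were more than 2-fold apart, and the median log2 difference was -0.02. In the control, 15 members had a mean signal of at least 5, and 8 of these were higher in column 1. Of the 15, 3 were more than 2-fold higher in column 1 and 2 in column 2, so that sample showed no common direction. As the ratio takes the lower heat column and the higher control column, a spread between columns lowers it. On column 1 alone the median difference of the log2 ratios between cultivars was 0.57, and on column 2 alone 0.98, both below the 1.503 of the rule's ratio. The ratio was larger in Arka Chaitra for 42 members on either column.

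**Figure D3:**
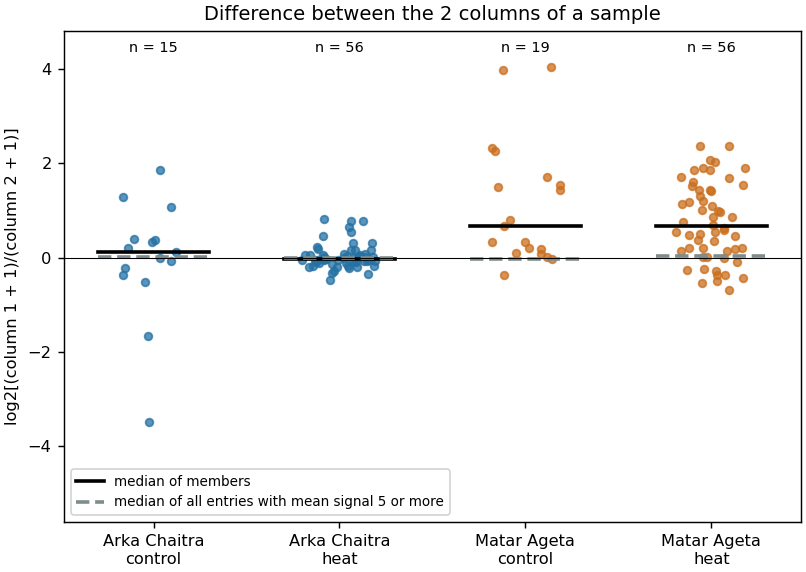
Log2 difference between column 1 and column 2 (signal plus 1) of each member with a mean signal of at least 5, for the 4 samples; points are members, solid bars their median and dashed bars the median of all entries of that level. The medians of the members are 0.67 in both Matar Ageta samples, and the median of the heated Arka Chaitra sample is -0.02.

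The rule does not compare the cultivars, but it asks for a heat signal of at least 5 in both. A member therefore cannot be absent from either heated sample. Above that level, its level in Arka Chaitra against Matar Ageta may vary. In control buds, 41 members reached 1 CPM in either cultivar. Arka Chaitra held at least 2 times the level of Matar Ageta for 9 of these, and the reverse was true of 11, with 0.5 CPM added and the counting interval excluding equality. The shares, 22.0% and 26.8%, stand beside 28.5% and 21.7% over the 61627 entries at that level. Those entries had no heat level to meet, so they were not chosen as the members were. The median log2 ratio of the members was 0. The balance depended on the columns and the level: members higher in Matar Ageta numbered 17 on column 1 alone and 6 on column 2 alone, and those higher in Arka Chaitra numbered 4 at a minimum of 5 CPM.

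In heated buds all 56 members reached 1 CPM. By the same measure 24 (42.9%) were higher in Arka Chaitra, whereas 5 (8.93%) were higher in Matar Ageta, beside 34.9% and 22.2% over 67526 entries. Those entries needed 1 CPM in only 1 cultivar and may be near zero in the other, unlike the members. The shares are thus not matched, and their difference was not tested. The median log2 ratio was 0.84 in the members and 0.19 in those entries, and 46 of 56 members were higher in Arka Chaitra. Of the 24 members, 16 were not called different in the controls, a class that includes members under 1 CPM there, 7 were higher in Arka Chaitra already and 1 was higher in Matar Ageta. That 1 member, rank 56, had a log2 ratio of Arka Chaitra to Matar Ageta of -1.56 in control buds and 1.43 in heated buds. The control difference rested on 1 column, since its signal in the Matar Ageta control was 12.5 and 1.67 against 2.00 and 2.10 in Arka Chaitra.

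The 5 members that were higher in heated Matar Ageta buds were all higher in its control too. They were ranks 19, 21, 22, 38 and 45. In control buds rank 22 held 2.33 CPM in Arka Chaitra and 39.0 CPM in Matar Ageta, and in heated buds 41.3 and 324 CPM. Rank 38 held 1.25 and 17.1 CPM in the controls and 18.9 and 221 CPM after heat. The log2 ratio of rank 22 was -3.80 without heat and -2.95 with it, a narrower gap, and that of rank 38 was -3.33 and -3.52. The largest gap in the other direction was at rank 5, with 956 CPM in heated Arka Chaitra and 29.6 CPM in heated Matar Ageta, a log2 ratio of 4.99.

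**Figure D4:**
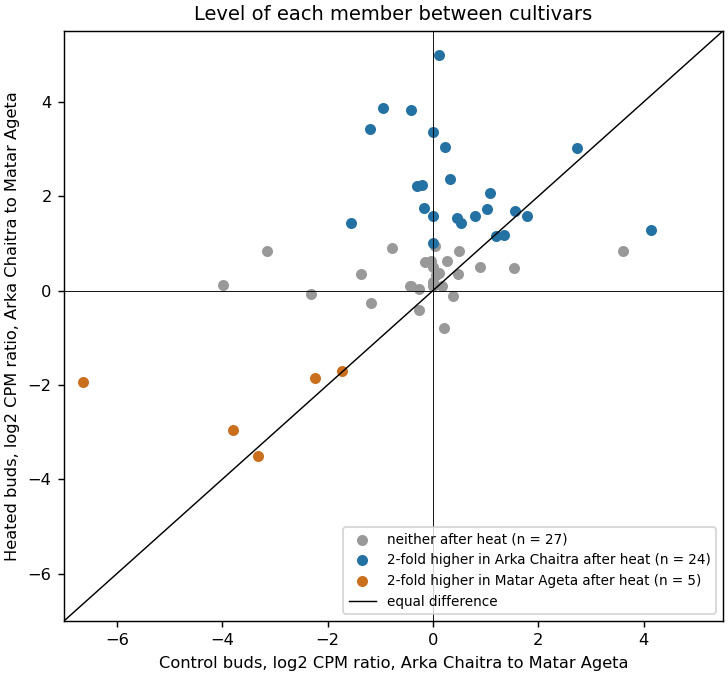
Log2 ratio of CPM in Arka Chaitra to Matar Ageta (0.5 CPM added) in control buds (x axis) and heated buds (y axis), 1 point per member, with colours for members at least 2-fold higher in either cultivar after heat. The 24 members higher in heated Arka Chaitra lie between -1.56 and 4.14 on the control axis. Of these, 7 were called higher in Arka Chaitra in control buds and 1 in Matar Ageta. The 5 members higher in heated Matar Ageta lie below 0 on both axes.

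The quasi-likelihood test of edgeR was applied to the 4 samples, with treatment as a term, for a cultivar difference common to control and heated buds. At an adjusted p of 0.05 (Benjamini-Hochberg over 77137 entries) it called 0 of 56 members and 0% of entries higher in Arka Chaitra, and 0 members and 0% of entries higher in Matar Ageta. The smallest adjusted p of a member in edgeR was 0.206. It was shared by 3 members, whose log2 differences of Arka Chaitra minus Matar Ageta were -3.65 for rank 38, 4.94 for rank 5 and 3.23 for rank 23. At an unadjusted p of 0.05 there were 13 members (23.2%), beside 14.2% of all entries, and the difference favoured Arka Chaitra in 9 and Matar Ageta in 4 of the members. DESeq2 with the same terms called 1 member, rank 19, as higher in Matar Ageta, with a log2 difference of -6.52 and an adjusted p of 0.0163, and over all 66950 entries it called 6972 higher in Arka Chaitra against 2419 in Matar Ageta. In edgeR the same member had a log2 difference of -5.33 and an adjusted p of 0.643. The fit leaves 1 residual degree of freedom per entry, which holds the difference between the cultivars in the heat response. The spread it estimates is therefore not a spread among plants. A p above the threshold does not show that levels were alike. Members had the heat level in both cultivars, whereas most entries tested did not. Their shares at the unadjusted p are therefore not matched in level.

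The assembly's identifiers give a cluster number, a component and a gene number, which the rule did not use. The 56 members lay in 53 of the 69607 clusters, and 3 clusters held 2 members each. Entries of 1 cluster can be pieces or copies of 1 gene that share reads, so the 6 members in these clusters are not independent. In 49 members the identifier was the first component and first gene of its cluster, which holds for 54.2% of all entries. That share covers all 127533 entries, of which 12940 had the heat level in both cultivars. It is not matched to the level of the members, and nothing is read from the difference. When the signal was summed over each cluster, 49 of the 53 clusters still met the rule.

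Some members lay near each other in the numbering. For 25 members (44.6%) another member's cluster lay within 50 numbers, in 10 groups, of which 8 held 2 clusters and 2 held 3. This share was not taken for sets of other entries, so whether it is high was not tested. The 23 entries that met the mirror rule, lower after heat, had such a neighbour among themselves in 52.2% of cases. They too were chosen from these data and give no background. Within 10 numbers the shares were 14.3% of the members and 47.8% of those 23 entries. Between these groups and the other 31 members the ratios differed, with a median of 65.7 against 6.26 in Arka Chaitra and of 11.2 against 4.74 in Matar Ageta. Grouped members held 14 of the first 20 ranks. TRINITY_GG_10525_c0_g1 was 1 of these, and its neighbour 7 numbers away, rank 7, had 7.68 and 7.04 in the Arka Chaitra control, 760 and 796 after heat, 7.41 and 2.59 in the Matar Ageta control and 337 and 233 after heat. The profiles of these neighbours lay within 2-fold of each other in every column on the scale of signal plus 1.

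In 2 of 24 pairs of members within 50 cluster numbers, pairs within 1 cluster included, every column lay within 2-fold. The closer pair was ranks 31 and 33, which lay 23 numbers apart and both had 3.22 in the first Arka Chaitra control column, 0.551 in the second Matar Ageta control column and 47.6 in the first Matar Ageta heat column. Whether these entries share reads was not tested, as no sequence of them was used here. Of 770 entries of other clusters within 50 numbers of a member and with the heat level in both cultivars, 2.08% met the rule in Arka Chaitra and 1.17%, or 9 entries, in Matar Ageta. Over all 12884 entries at that level that were not members, the shares were 2.51% and 0.636%. The difference was not tested. What order the cluster numbers follow is not given in the sources used here.

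Members were spread over 36 of 70 windows of 1000 cluster numbers, with at most 5 in a window. In 28 windows, of all entries with at least 5 CPM in a control, more had 16 times the Matar Ageta level in Arka Chaitra than the reverse, and in the other windows they did not. The first kind held 22 members (39.3%), beside 52.6% of the 12940 entries. The median ratio in Arka Chaitra was 18.6 there and 49.0 for the 34 members of the second kind. In Matar Ageta it was 6.23 and 7.15. The ratio was larger in Arka Chaitra for 18 of 22 members in the first kind and for 30 of 34 in the second, a majority in both kinds.

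The edges of the rule were populated. The 3 members with the smallest ratios had 2.003, 2.11 and 2.18 as the smaller of their 2 ratios. The 3 entries next below had 1.998, 1.94 and 1.93, with heat levels of 141, 111 and 83.8 in their lowest heat column. In all, 61 entries with the heat level had a smaller ratio of 1.5 to 2. On the level, the lowest heat column of a member was 5.21, and the nearest entries outside that passed the ratio had 4.62, 4.14 and 4.06. There were 56 entries that passed the ratio in both cultivars but stayed under the level of 5.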

How the data were processed

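RNA sequencing libraries were made from total RNA with a SMARTER mRNA kit, per the labels' protocols. The submitters' processing notes list RSEM, STAR, Bowtie2, FastQC and DESeq2 without version or role. No genome build is given in the sources used here. In these files the authors deposited, per cultivar, a table of expected counts, which are estimated counts per assembled gene and are not whole numbers. They also deposited a TMM signal, which is the expected count times 1 constant per column, scaled separately for each cultivar. No column was left unmapped.

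The members were found on the signal. For levels between cultivars, expected counts were summed over the 2 columns, rounded, and scaled with TMM over the 4 samples in edgeR 4.0.16 (R 4.3.3). A cultivar difference needed 1 CPM in the higher sample, 2-fold with 0.5 CPM added, and an exact (Clopper-Pearson) 95% interval excluding 1. The edgeR test used filterByExpr and was tested on simulated data. There it recovered changes at a low spread but none at the spread that the fit estimated, which is not one among plants. DESeq2 1.42.0 was the alternative, and others covered scaling, pseudocounts, thresholds and single columns. Only 2 identifiers are printed: the member with the largest smaller ratio and the one with the highest lowest heat column. The members and all lists were chosen with earlier results of these data known. Ranks singled out in the text were chosen after their values were seen.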

Additional observations from a re-analysis of the deposited data

How the results depend on the processing

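The count of 56 members stayed within 1.5 times, at 39 to 61, under other library scalings, an added 0.5 or 2, a level of 10, a 4-fold limit and sums over clusters. It was 112 at a level of 1, 243 on column means, 449 on column 1 alone and 299 on column 2 alone. Alternatives chosen after seeing the data gave 252 on summed counts and 66 to 119 with 1 column left out in turn. Beyond 1.5 times were 88 without the second Matar Ageta control column, 86 without the first Matar Ageta heat column and 119 without the second. All 56 members were kept in each set of this paragraph that held 59 or more.

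The median log2 ratio in Arka Chaitra was 5.27 with 0.5 added, 4.32 with 2 added, 5.34 on column 1, 5.48 on column 2, 5.49 and 5.55 on summed counts scaled by TMM and by DESeq2 size factors, and 4.66 summed over clusters. In Matar Ageta it was 3.95 on column 1, 3.33 on column 2, and 3.85 and 3.84 on summed counts. The median difference between the cultivars was 0.57 on column 1, 0.98 on column 2, and 0.68 and 0.71 on summed counts, and the number of members with the larger ratio in Arka Chaitra was 42 to 48 in all of these. In control buds, members higher in Arka Chaitra numbered 4 at a minimum of 5 CPM, and those higher in Matar Ageta 17 on column 1 and 6 on column 2. DESeq2 called 1 member as higher in Matar Ageta; over all entries it called 6972 higher in Arka Chaitra against 2419 in Matar Ageta, and edgeR without the treatment term 2797 and 2580, none of them members. The causes of these shifts were not tested.

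No paired analysis was possible because each group holds 1 sample, and the numbers in the titles mark control and heat. Leaving out a sample leaves no residual degree of freedom. Depth limits the near-zero controls. There the few control counts limit the fold in CPM, and the added 1 limits the rule's ratio. All intervals cover counting error only.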
